A study of Mus musculus with 6 samples.

Results

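The genes described here are 38 markers and regulators of blood vessels: surface and junction proteins of endothelial cells, their receptors, their transcription factors, and the growth factors VEGF-A and angiopoietin 2. They were chosen as a named list, by matching probe sets that carry a single gene symbol to the 38 names. All 38 were measured, each by 1 probe set, among 22180 named genes of the arrays. Within the list 33 genes had a mean over the arrays above 3.13, the middle value of the array medians. The other 5, Cldn5, Clec14a, Sox7, Tal1 and Lyl1, did not, and without detection calls their values were not separated from background.

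Each array was hybridised with RNA of mouse islets of Langerhans, in which insulin-secreting β cells lie among other hormone cells and a dense capillary network. The mice were 5 weeks old and on the C57BL/6J background. In 3 arrays the mice were β-cell-specific Sel1L knockouts (Sel1L-deficient), made by crossing Sel1L f/f mice with Ins1Cre mice, whose Cre recombinase sits at the insulin gene locus Ins1. The other 3 arrays held islets of control littermates, called wildtype in the labels and described in the breeding protocol as Sel1L f/f. Both groups thus carried the floxed alleles. No group had Ins1Cre alone, so effects of Ins1Cre and of Sel1L loss cannot be told apart. Sel1L is a partner of the HRD1 ubiquitin ligase in ER-associated degradation. Cre was driven from a β-cell gene, while most of the genes below are made by vessel cells, which that Cre does not target. Islets were isolated by enzyme digestion, hand-picked and kept overnight in culture before RNA was taken. The sources used here do not say how many animals went into each array, and the p-values can reflect no more than the variation among these 6 samples, which may be technical.

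Islets are densely supplied by capillaries whose thin endothelium is pierced by fenestrae. β cells secrete VEGF-A, which acts on receptors of the neighbouring endothelium and maintains this capillary bed. Angiopoietins act on the endothelial Tie receptors, and transcription factors of the ETS, SOX and SCL families set the endothelial program. In a whole-islet sample, more or fewer endothelial cells and more or less RNA per endothelial cell cannot be told apart.

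Values are log2 RMA summaries, and differences are Sel1L-deficient minus wildtype on that scale. Sel1l itself went with the genotype labels, with 7.73, 7.65 and 7.68 on the Sel1L-deficient arrays and 8.46, 8.56 and 8.76 on the wildtype arrays (difference -0.90 ± 0.11 SE, limma adjusted p = 0.0312). The labels give female for every sample, but replicate 3 of each genotype carried Y-linked transcripts. Uty, a Y-linked gene, read 7.04 on Sel1L-deficient replicate 3 and 7.18 on wildtype replicate 3, against 1.49 to 1.73 on the other 4 arrays. Results are therefore also given within the 4 arrays without these transcripts and within the pair that had them. Endothelial RNA was present in all 6 samples by the defining markers, since Pecam1, Cdh5, Emcn and Kdr lay at 6.25 or higher on every array. Claudin 5 (Cldn5) and von Willebrand factor (Vwf), also endothelial markers, gave dim signals of 1.75 to 2.07 and 3.46 to 3.65.

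Most of the vessel genes stood higher in Sel1L-deficient islets, by modest amounts, and 1 of them passed the threshold of an adjusted p under 0.05. Cd34, a sialomucin on the luminal surface of capillary endothelium, rose 1.68-fold, and 0 of the 38 genes fell. Across all 22180 genes the same test found 0.0902% higher and 0.153% lower. The median difference of the 38 was 0.28, or 1.22-fold, against 0.00 for all genes. The difference was positive in 34 of the 38, while 50.1% of all genes had a positive one. In 15 of the 38 every Sel1L-deficient array lay above every wildtype array, compared with 7.22% of all genes, and in 0 did they lie below, compared with 7.84% of all genes. At an unadjusted p under 0.05, 14 of the 38 were higher and 0 lower, with 4.45% and 5.04% of all genes. Among the 33 listed genes with a mean above 3.13, 14 were higher and 0 lower at an unadjusted p under 0.05, with 5.46% and 7.42% of the 11991 genes above that level, and 30 had a positive difference, with 45.8% of those genes. The list was drawn up with results of these arrays known, and its members share their source cells, so these shares are a description.

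Within the 4 arrays without Y-linked transcripts the median difference of the 38 genes was 0.31 and 33 were positive. Within the pair with Y-linked transcripts the median was 0.18 and 27 were positive. Over all genes 48.9% were positive in the first set and 51.4% in the second.

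**Figure D1:**
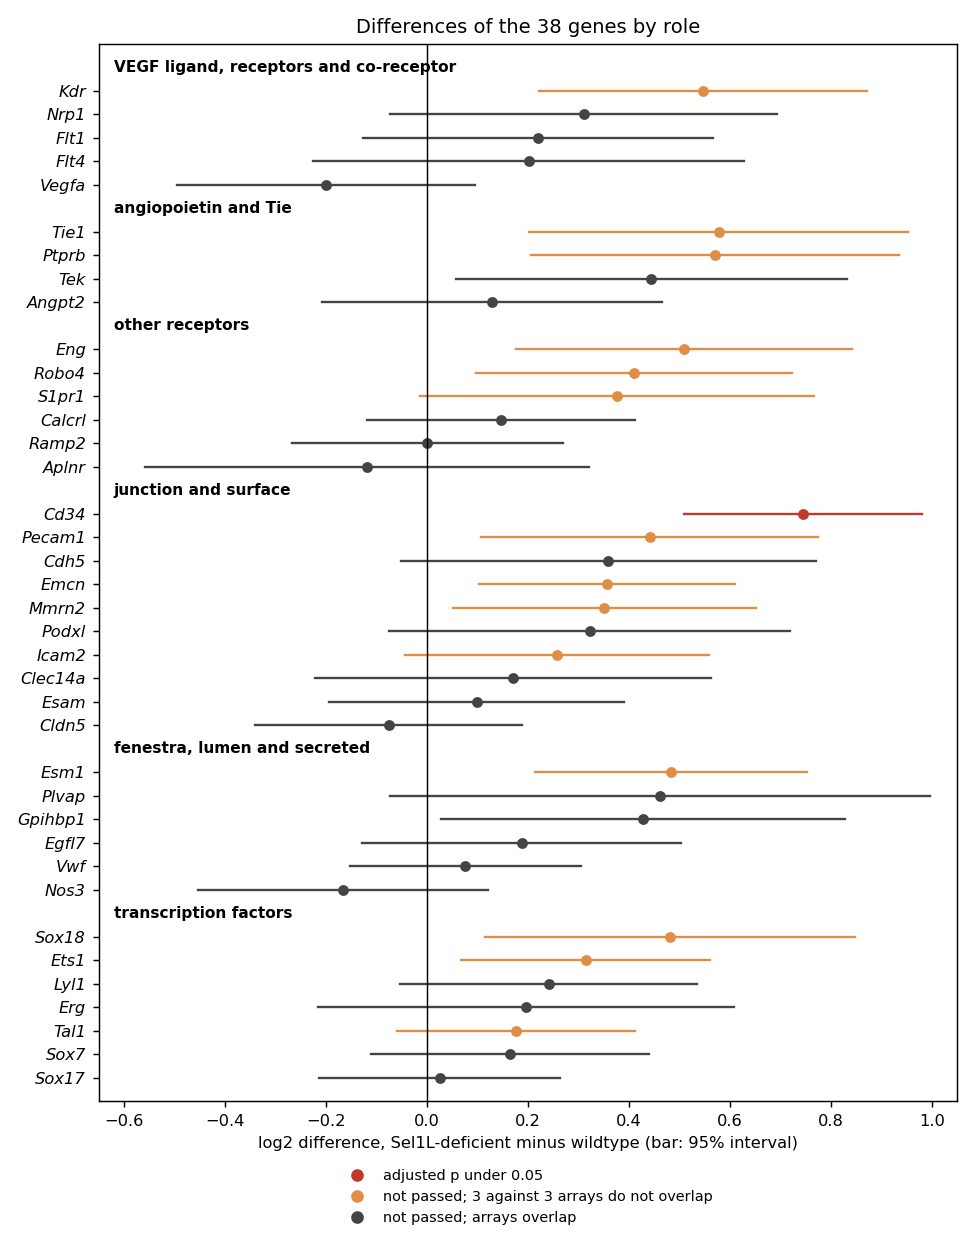
Log2 difference of each of the 38 genes, Sel1L-deficient minus wildtype, with limma's 95% interval, sorted within 6 roles. Cd34 alone passed the adjusted threshold, 14 more genes had array values that did not overlap between genotypes, and Vegfa, Nos3, Aplnr and Cldn5 lay below 0.

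Among the surface and junction proteins, Cd34 stood apart from its neighbours in the list. Cd34 read 5.76, 5.57 and 5.70 on the Sel1L-deficient arrays, against 4.89, 4.91 and 5.00 on the wildtype arrays. The groups were separated by more than the range within either. The group means were 5.68 ± 0.09 in Sel1L-deficient and 4.93 ± 0.06 in wildtype islets (SD, n = 3 each), which differed by 0.74 ± 0.10 (SE, adjusted p = 0.041 in limma). The difference was 0.77 within the 4 arrays without Y-linked transcripts and 0.70 within the pair with them. The call rested on all 6 arrays together, since limma's adjusted p lay between 0.104 and 0.203 when any 1 array was left out, with the difference between 0.70 and 0.80. With a covariate for the Y-linked transcripts the adjusted p was 0.0517. Outside vessels, CD34 also marks blood progenitors and some stromal cells.

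The 250 bases before the RefSeq start of Cd34 (build GRCm38.p6) are shown with those of the next 3 listed genes by unadjusted p that had a promoter entry, Esm1, Kdr and Tie1, because endothelial promoters are known for their ETS sites. Capitals mark matches to the ETS pattern CNGGAAG on either strand, which is stricter than the core GGAA. GGAA letters without these flanking bases are left unmarked.
Cd34, chr1:194938571-194938820, plus strand: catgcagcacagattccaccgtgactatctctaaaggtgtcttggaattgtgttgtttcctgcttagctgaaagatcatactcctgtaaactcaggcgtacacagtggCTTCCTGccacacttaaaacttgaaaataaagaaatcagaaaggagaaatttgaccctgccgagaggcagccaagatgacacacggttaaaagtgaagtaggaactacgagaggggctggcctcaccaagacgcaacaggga
Esm1, chr13:113209409-113209658, plus strand: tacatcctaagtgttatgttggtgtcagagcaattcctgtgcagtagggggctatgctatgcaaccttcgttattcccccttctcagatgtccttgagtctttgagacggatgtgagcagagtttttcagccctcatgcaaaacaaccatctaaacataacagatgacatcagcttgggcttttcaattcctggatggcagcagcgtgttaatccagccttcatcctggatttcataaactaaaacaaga
Kdr, chr5:75978456-75978705, minus strand: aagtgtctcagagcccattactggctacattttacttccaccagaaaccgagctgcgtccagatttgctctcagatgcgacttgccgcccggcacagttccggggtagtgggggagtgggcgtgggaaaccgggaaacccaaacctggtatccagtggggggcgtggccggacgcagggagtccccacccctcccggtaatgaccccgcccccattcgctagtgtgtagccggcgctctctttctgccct
Tie1, chr4:118489850-118490099, minus strand: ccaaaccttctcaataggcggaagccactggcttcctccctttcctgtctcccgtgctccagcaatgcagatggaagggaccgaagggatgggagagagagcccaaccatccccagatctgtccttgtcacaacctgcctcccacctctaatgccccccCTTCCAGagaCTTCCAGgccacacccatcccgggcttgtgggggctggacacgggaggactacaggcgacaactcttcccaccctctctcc
Cd34 held 1 match to this pattern and Tie1 held 2, while Esm1 and Kdr held 0 in this window.

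Of the 38 genes 19 had a promoter entry. The ETS pattern CNGGAAG was in at least 1 window of 250 bases for 13 of these, compared with 29.2% of 27025 genes in the same RefSeq table. Counted by window, 14 of 25 held it, compared with 26.6% of all windows. A SOX core, AACAAT, was found in 4 of the 19 genes and in 10.9% of all genes. A GATA core, AGATAA, was found in 3 of the 19 and in 11.4% of all. The E-box CANNTG was found in 12 of the 19 and in 69.3% of all. All motifs were searched on both strands, matches of different motifs may overlap, and the motifs were picked after values of these arrays were known. A match describes letters and is no evidence of binding.

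Platelet endothelial cell adhesion molecule, Pecam1, is the classic marker of endothelial junctions. Pecam1 read 6.88, 6.78 and 7.14 in Sel1L-deficient islets, against 6.25, 6.55 and 6.67 in wildtype islets (difference 0.44 ± 0.15 SE, limma adjusted p = 0.387). The values did not overlap, but the difference did not pass the test. Emcn, the sialomucin endomucin of capillaries and veins, had 8.46, 8.54 and 8.37 in Sel1L-deficient islets, against 7.998, 8.07 and 8.24 in wildtype islets (0.36 ± 0.11, adjusted p = 0.355). Here too every Sel1L-deficient value was the higher. Mmrn2, multimerin 2 of the vessel matrix, had 6.08, 5.80 and 6.00 in Sel1L-deficient islets, against 5.65, 5.42 and 5.77 in wildtype islets (0.35 ± 0.13, adjusted p = 0.444). Icam2, an adhesion molecule for leukocytes, had 3.66, 3.46 and 3.52 in Sel1L-deficient islets, against 3.38, 3.05 and 3.44 in wildtype islets (0.26 ± 0.13, adjusted p = 0.605). The lowest Sel1L-deficient value of both lay only just above the highest wildtype value.

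Cdh5, VE-cadherin of the adherens junction, overlapped between the groups. It read 8.49, 8.07 and 8.47 in Sel1L-deficient islets, against 7.63, 8.20 and 8.11 in wildtype islets. Wildtype replicate 1 was the low array, and without it the difference was 0.19 in place of 0.36. Podxl, podocalyxin of the luminal surface, differed by 0.32 and by 0.14 without the same array. Esam, an adhesion molecule of tight junctions, differed by 0.10, Clec14a, a C-type lectin of vessels, by 0.17 and Cldn5 by -0.08. The 95% intervals of these 3 were -0.19 to 0.39, -0.22 to 0.56 and -0.34 to 0.19. For Clec14a the higher mean came from Sel1L-deficient replicate 3 at 3.47, the others being 2.83 to 2.92. Of the 10 surface and junction genes, 1 rose, 0 fell and 9 did not pass, and 5 were higher without overlap. Over all genes 0.0902% rose and 7.22% were higher without overlap.

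The VEGF axis joins a ligand made by β cells to receptors on the endothelium. Vegfa, the ligand, read 9.35, 9.51 and 9.56 in Sel1L-deficient islets, against 9.52, 9.61 and 9.89 in wildtype islets. The groups overlapped, and the difference of -0.20 had a 95% interval of -0.50 to 0.10 (limma adjusted p = 0.71). It was -0.13 within the 4 arrays without Y-linked transcripts, -0.33 within the pair with them and -0.09 without wildtype replicate 3. Vegfa was thus 1 of the 4 genes of the list with a negative difference.

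Kdr, the main signalling receptor for VEGF-A, read 8.83, 8.59 and 8.74 in Sel1L-deficient islets, against 7.90, 8.31 and 8.32 in wildtype islets. Every Sel1L-deficient value was above the wildtype ones, with means of 8.72 ± 0.12 and 8.17 ± 0.24 (SD, n = 3 each) in Sel1L-deficient and wildtype islets. The difference of 0.55 ± 0.14 (SE) did not pass (limma adjusted p = 0.266). Flt1, a receptor that also acts as a VEGF trap, overlapped, with 7.13, 6.83 and 7.02 in Sel1L-deficient islets, against 6.49, 6.98 and 6.85 in wildtype islets. Its difference of 0.22 was 0.08 without wildtype replicate 1. Flt4, the VEGF-C receptor of lymphatic and some blood vessels, differed by 0.20, and by 0.09 to 0.41 when 1 array was left out, lowest without wildtype replicate 2 and highest without wildtype replicate 3. Within the pair with Y-linked transcripts it was -0.035. Nrp1, the co-receptor neuropilin 1, differed by 0.31. It was 0.54 within the 4 arrays without Y-linked transcripts and -0.15 within the pair with them. None of the 5 genes of this axis passed the test, and Kdr alone was free of overlap, with 7.22% of all genes higher without overlap.

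Angpt2, angiopoietin 2, is a ligand of endothelial cells that loosens vessels. It read 6.07, 5.73 and 5.71 in Sel1L-deficient islets, against 5.49, 5.78 and 5.87 in wildtype islets. The values were interleaved (difference 0.13, 95% interval -0.21 to 0.46). The difference was 0.012 without Sel1L-deficient replicate 1, and -0.16 within the pair with Y-linked transcripts. Tek, which encodes the angiopoietin receptor TIE2, read 4.49, 4.08 and 4.16 in Sel1L-deficient islets, against 3.70, 3.59 and 4.11 in wildtype islets. Only wildtype replicate 3 reached into the Sel1L-deficient range (difference 0.44 ± 0.17 SE, limma adjusted p = 0.454). Its difference was 0.64 within the 4 arrays without Y-linked transcripts and 0.05 within the pair with them.

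Tie1, the orphan partner of TIE2, had 4.23, 4.45 and 4.71 in Sel1L-deficient islets, against 3.63, 4.10 and 3.93 in wildtype islets (0.58 ± 0.16, adjusted p = 0.32). Its groups did not overlap, and the difference was 0.48 within the 4 arrays and 0.78 within the pair. Ptprb, the endothelial phosphatase VE-PTP that restrains TIE2, had 6.44, 6.15 and 6.48 in Sel1L-deficient islets, against 5.51, 5.79 and 6.05 in wildtype islets (0.57 ± 0.16, adjusted p = 0.309). After Cd34, Tie1 and Ptprb had the largest differences of the 38 genes. Neither passed the test.

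Among the other receptors, endoglin, Eng, is a TGF-β co-receptor of endothelium. Eng read 8.58, 8.40 and 8.22 in Sel1L-deficient islets, against 7.65, 7.99 and 8.04 in wildtype islets (0.51 ± 0.15 SE, limma adjusted p = 0.321). The Sel1L-deficient values were all higher, by 0.67 within the 4 arrays without Y-linked transcripts and by 0.18 within the pair with them. Robo4, a roundabout receptor that stabilises vessels, had 6.10, 5.79 and 6.17 in Sel1L-deficient islets, against 5.59, 5.47 and 5.77 in wildtype islets (0.41 ± 0.14, adjusted p = 0.387). S1pr1, a receptor for sphingosine 1-phosphate, had 6.59, 6.76 and 6.997 in Sel1L-deficient islets, against 6.07, 6.57 and 6.58 in wildtype islets (0.38 ± 0.17, adjusted p = 0.547). For Robo4 and S1pr1 the lowest Sel1L-deficient value cleared the highest wildtype value by little.

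The apelin receptor gene Aplnr and both parts of the adrenomedullin receptor overlapped between the groups. Aplnr differed by -0.12, with -0.28 within the 4 arrays without Y-linked transcripts and 0.20 within the pair with them. Calcrl, the calcitonin receptor-like receptor, differed by 0.15, and Ramp2, which directs it to adrenomedullin, by 0.00. The 95% intervals were -0.56 to 0.32 for Aplnr, -0.12 to 0.41 for Calcrl and -0.27 to 0.27 for Ramp2. Of these 6 receptors 0 passed the test and 3 were higher without overlap, with 7.22% of all genes.

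**Figure D2:**
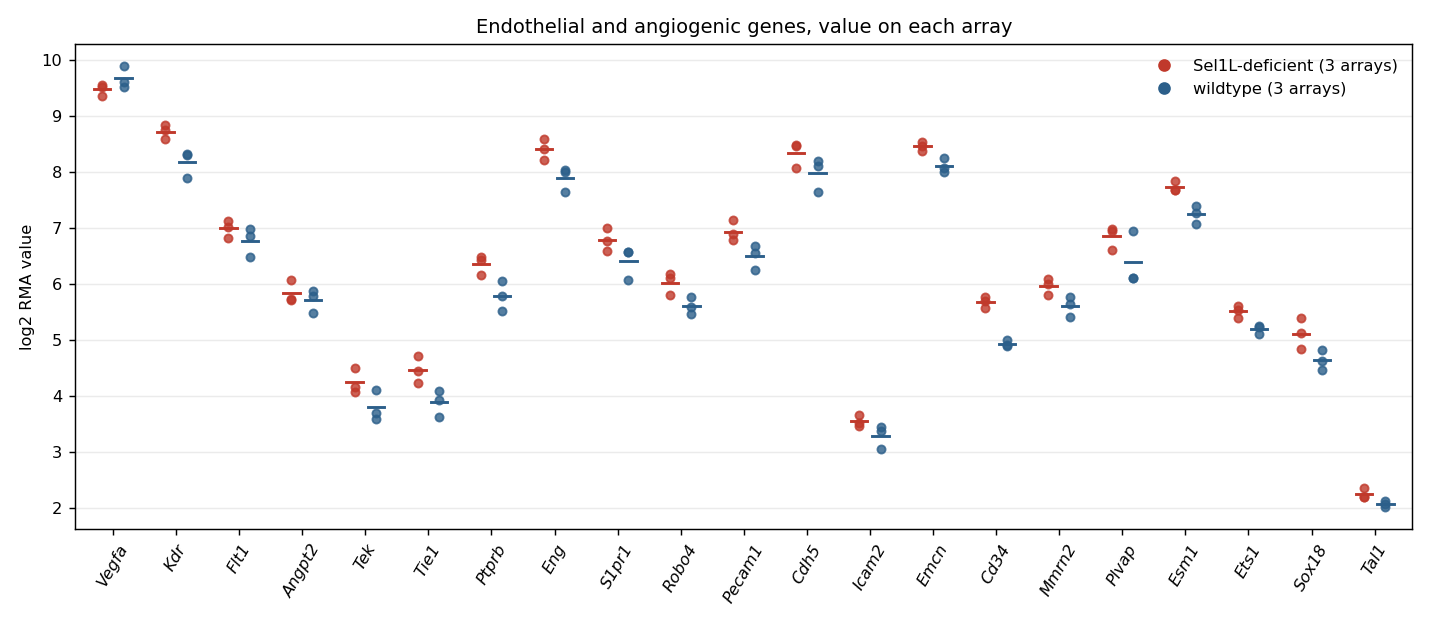
Log2 value on each array (points) and group mean (bars) for the 15 genes without overlap and for 6 more shown whatever their values, Sel1L-deficient left of wildtype for each gene. Cd34 is separated by more than its spread, while Vegfa, Flt1, Angpt2, Tek, Cdh5 and Plvap overlap; heights of different genes are not comparable because each probe set has its own response.

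Esm1, endocan, is a secreted proteoglycan induced by VEGF in endothelial tip cells. Esm1 read 7.83, 7.68 and 7.67 in Sel1L-deficient islets, against 7.08, 7.27 and 7.39 in wildtype islets. The groups were apart, with a difference of 0.48 ± 0.12 (SE; limma adjusted p = 0.24), the smallest adjusted p of the 38 after Cd34. Plvap, the protein of the diaphragm that spans fenestrae, read 6.98, 6.60 and 6.95 in Sel1L-deficient islets, against 6.11, 6.10 and 6.95 in wildtype islets. Wildtype replicate 3 matched the Sel1L-deficient arrays, and without it the difference was 0.74 in place of 0.46. Without wildtype replicate 2 it was 0.32. Within the pair with Y-linked transcripts it was 0.00.

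Gpihbp1, which carries lipoprotein lipase to the capillary lumen, differed by 0.43 ± 0.17 (SE; limma adjusted p = 0.491) with overlap. Its difference was 0.22 within the 4 arrays without Y-linked transcripts and 0.84 within the pair with them. Egfl7, a secreted protein of sprouting vessels, differed by 0.19 and Vwf, which is stored in endothelial granules, by 0.08. Nos3, the endothelial nitric oxide synthase, differed by -0.17 with a 95% interval of -0.45 to 0.12. Of these 6 genes 0 passed, and Esm1 alone was free of overlap, with 7.22% of all genes higher without overlap.

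Among the 7 transcription factors all differences were positive and 0 passed. Sox18, an endothelial SOX factor, had 5.12, 5.39 and 4.84 in Sel1L-deficient islets, against 4.47, 4.62 and 4.82 in wildtype islets (0.48 ± 0.16 SE, limma adjusted p = 0.387). The groups did not overlap, but only just, since Sel1L-deficient replicate 3 read 4.84 and wildtype replicate 3 read 4.82. Within the 4 other arrays the difference was 0.71. Ets1, an ETS factor of endothelium that lymphocytes also use, had 5.39, 5.61 and 5.53 in Sel1L-deficient islets, against 5.24, 5.25 and 5.10 in wildtype islets (0.31 ± 0.11, adjusted p = 0.401). Tal1, the factor SCL, had 2.36, 2.20 and 2.19 in Sel1L-deficient islets, against 2.13, 2.07 and 2.01 in wildtype islets, all below 3.13.

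Erg, an ETS factor largely confined to endothelium, overlapped with a difference of 0.20. It was 0.076 without Sel1L-deficient replicate 3 and 0.40 without Sel1L-deficient replicate 2. Sox17 and Sox7, the relatives of Sox18, differed by 0.02 and 0.16. Their 95% intervals were -0.21 to 0.26 and -0.11 to 0.44. Lyl1, a relative of Tal1, differed by 0.24 at values of 1.91 to 2.39.

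The arrays of one genotype did not read alike for these genes. Wildtype replicate 1 was the lowest of the 6 arrays for 17 of the 38 genes, and for 3459 of all 22180 genes. Wildtype replicate 3 was the highest wildtype array for 25 of the 38. Over all genes wildtype replicate 3 was the highest of its group for 32.1%. Among the Sel1L-deficient arrays replicate 2 was the lowest for 21 of 38, and over all genes it was the lowest for 35.3%. The mean log2 value over the 38 genes was 5.42, 5.30 and 5.42 on the Sel1L-deficient arrays and 5.00, 5.12 and 5.22 on the wildtype arrays. The median SD of the 38 genes was 0.17 in Sel1L-deficient and 0.18 in wildtype islets. It was 0.14 in both groups over all genes above the array medians. The sets are not filtered alike, since the 38 include 5 genes not above that level.

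**Figure D3:**
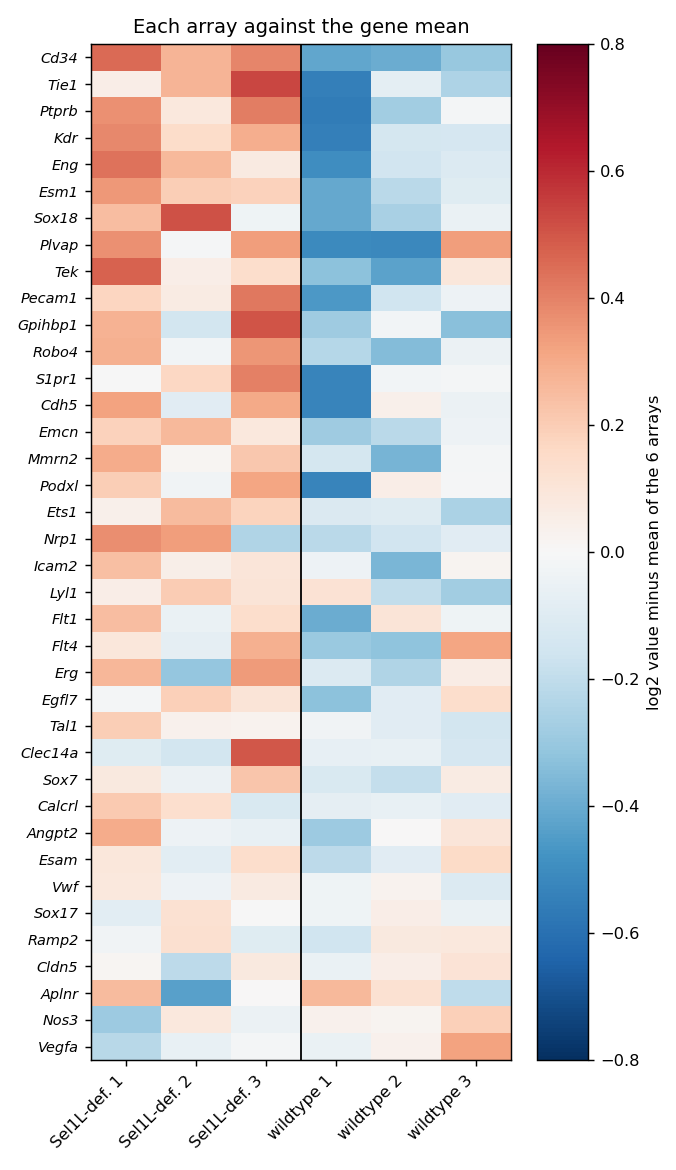
Log2 value of each of the 38 genes on each array minus the gene's mean over the 6 arrays, sorted by the difference between genotypes. Wildtype replicate 1 is blue for most of the upper rows, and Plvap and Flt4 are red in wildtype replicate 3.

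Markers of other cells were read on the same arrays. The pericyte and mesenchymal list, the cells that wrap capillaries and make matrix, had a median difference of 0.35 over 15 genes, of which 13 were positive, 0 rose and 0 fell. In 3 of the 15, Dcn, Lum and Sparc, the Sel1L-deficient arrays lay above the wildtype ones, with 7.22% of all genes. Lum lay below 3.13 on every array. Rgs5, Pdgfrb, Abcc9, Cspg4, Kcnj8 and Notch3 overlapped, with differences of 0.72, 0.24, 0.15, 0.12, -0.045 and -0.09. Its summed linear level was 686 to 796 on the Sel1L-deficient arrays and 462 to 623 on the wildtype arrays. No marker of this list was at 0 and 13 of 15 had a mean above 3.13. The ranges of the summed level of the 38 vessel genes were 3562 to 3830 in Sel1L-deficient and 2725 to 3485 in wildtype islets. Vegfa, the brightest of the 38, is part of that sum, and such sums lean on the brightest probe sets. Both summed levels were higher on every Sel1L-deficient array, and the part of the mesenchymal RNA in the vessel differences was not tested. As mean log2 values the mesenchymal list overlapped, with 4.82 to 5.12 in Sel1L-deficient and 4.29 to 4.83 in wildtype islets. The order of arrays differed, as wildtype replicate 3 was the lowest of the 6 for the mesenchymal list and the highest wildtype array for the vessel list.

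Leukocyte markers had a median of -0.19 over 11 genes and 0 called. Their summed level was 252 to 300 on the Sel1L-deficient arrays and 281 to 349 on the wildtype arrays. Ptprc, the pan-leukocyte CD45, lay at 2.98 to 3.71, around the array medians. Acinar markers, the digestive enzymes of exocrine tissue, ranged widely inside each group, with a summed level of 2125 to 8375 in Sel1L-deficient and 3504 to 9130 in wildtype islets. Replicate 3 of each genotype held the highest acinar level. All 8 acinar genes had negative differences (median -0.71) and 0 passed. Duct and Schwann markers had medians of -0.12 and -0.00069 with 0 called. In 2 of the 6 duct genes and 1 of the 11 leukocyte genes the Sel1L-deficient arrays lay below the wildtype ones, with 7.84% of all genes.

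Of 11 β-cell markers 4 fell, Mafa, Ucn3, Slc2a2 and G6pc2, with 0.153% of all genes, and the median was -0.56. All 11 differences were negative, and 7 did not pass. In 10 of the 11 every Sel1L-deficient array lay below every wildtype array, with 7.84% of all genes. Of the 7, Ins2, Pdx1, Nkx6-1 and Trpm5 differed by -0.50, -0.66, -0.56 and -0.51. Those of Iapp, Slc30a8 and Glp1r were only -0.09, -0.07 and -0.06. Fewer β cells and less of some RNAs per β cell cannot be told apart here. The summed level of the 11 markers was 11620 to 11917 in Sel1L-deficient and 14398 to 16340 in wildtype islets. The summed α-cell level was 10013 to 10512 in Sel1L-deficient and 9471 to 9786 in wildtype islets. As mean log2 values the α-cell list was also higher on every Sel1L-deficient array, with 8.97 to 9.06, against 8.64 to 8.88 in wildtype islets. The 4 α-cell genes had a median of 0.22 and the 4 δ-cell genes 0.10, with 0 called. RMA values of an array are relative to its other transcripts, so how far the lower level of the β-cell list moves the vessel genes was not tested. Glucagon and somatostatin, the most abundant RNAs of those cells, differed by 0.03 and -0.03 near the top of the scale.

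**Figure D4:**
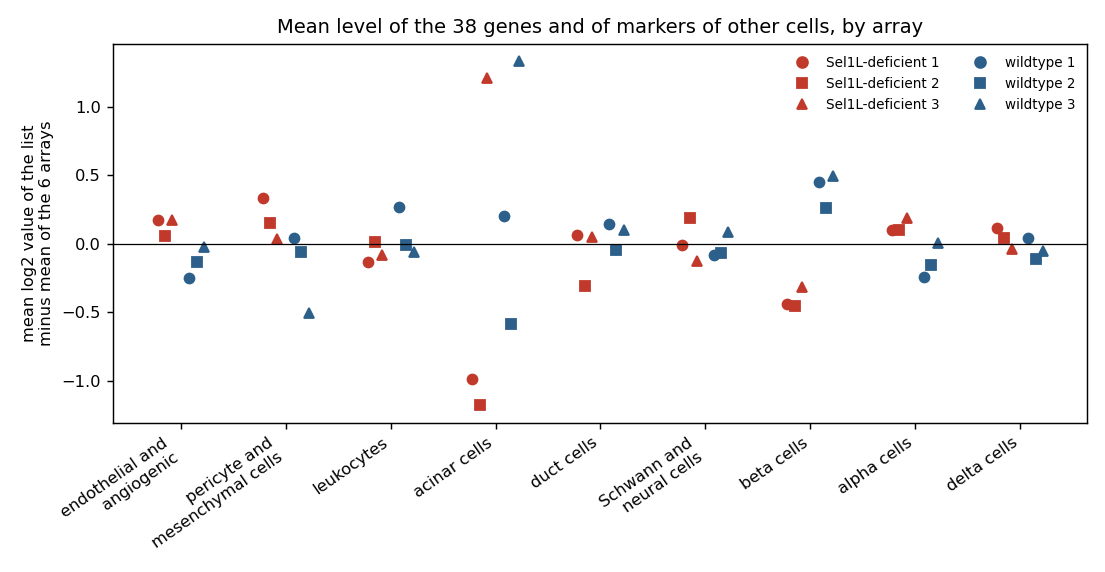
Mean log2 value of the 38 vessel genes and of 8 marker lists on each array, minus the mean of the 6 arrays, with a symbol for each replicate. The vessel list and the α-cell list lie higher and the β-cell list lower on every Sel1L-deficient array. The mesenchymal list overlaps narrowly, and the acinar list is highest in replicate 3 of each genotype.

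A further 74 vessel and angiogenesis genes outside the list were read in the same fit. Of these 0 rose and 0 fell, and their median was 0.13. At an unadjusted p under 0.05, 14 were higher and 1 lower, with 4.45% and 5.04% of all genes. In 15 the Sel1L-deficient arrays lay above the wildtype ones and in 1 below, with 7.22% and 7.84% of all genes. Of 18 further surface and signalling genes 14 had positive differences (median 0.19). Cyyr1, a small membrane protein, differed by 0.51 ± 0.10 (SE; limma adjusted p = 0.159) on its brighter probe set and by -0.11 on a second set that was dimmer, with means of 1.73 in Sel1L-deficient and 1.84 in wildtype islets. Slco2a1, a prostaglandin transporter of endothelium, read 7.23, 7.16 and 7.16 in Sel1L-deficient islets, against 6.06, 6.36 and 6.83 in wildtype islets (0.76 ± 0.18, adjusted p = 0.229). The wildtype arrays were spread and the Sel1L-deficient ones were nearly equal.

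In the Notch group, which patterns arteries, Hey1, a target of Notch, differed by 0.89 ± 0.24 (SE; limma adjusted p = 0.285). Its values were 5.55, 5.33 and 4.62 in Sel1L-deficient islets, against 4.26, 4.54 and 4.03 in wildtype islets, with replicate 3 the lowest of each group. Gja4, connexin 37 of arteries, differed by 0.48 ± 0.12 (adjusted p = 0.256). Among further ligands and receptors Efnb2, the arterial ephrin B2, differed by 0.64 ± 0.18 (adjusted p = 0.311) and Unc5b, a netrin receptor, by 0.77 with overlap. Both genes are also made outside vessels. The Notch group had a median of 0.13 over 9 genes and the ligand and receptor group 0.05 over 16.

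Upstream of Vegfa, the hypoxia factors gave mixed values. Egln3, a prolyl hydroxylase induced by hypoxia, read 3.87, 3.85 and 3.80 in Sel1L-deficient islets, against 2.96, 3.36 and 3.02 in wildtype islets (0.73 ± 0.13 SE, limma adjusted p = 0.109). It had the smallest adjusted p of the 74, and its wildtype mean of 3.11 was not separated from background. Epas1, the endothelial factor HIF-2α, differed by 0.51 ± 0.16 (adjusted p = 0.372). The median of the 6 genes was 0.07.

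Vessel basement membrane genes had a median of 0.17 over 8, led by the collagen IV chains Col4a1 with 0.34 and Col4a2 with 0.29 (limma adjusted p = 0.47 and 0.412). Of the further transcription factors, Fli1 differed by 0.25 and Mef2c by 0.17, with 0.37 on its second probe set. Thbs1 and Thbs2, thrombospondins that inhibit angiogenesis, differed by 0.65 and 0.46 (adjusted p = 0.439 and 0.279). Thbs2 lay below 3.13 on every array.

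Lyve1, the hyaluronan receptor of lymphatic endothelium and of some tissue macrophages, was the gene of the 74 that lay lower without overlap. It read 4.03, 3.80 and 4.89 in Sel1L-deficient islets, against 5.13, 5.10 and 5.80 in wildtype islets, with replicate 3 the highest of each group. The difference of -1.10 ± 0.30 (SE), or 2.14-fold lower, did not pass (limma adjusted p = 0.283). With a covariate for the Y-linked transcripts it did, at an adjusted p of 0.0188. Prox1 and Pdpn, other lymphatic markers, differed by 0.08 and 0.13.

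**Figure D5:**
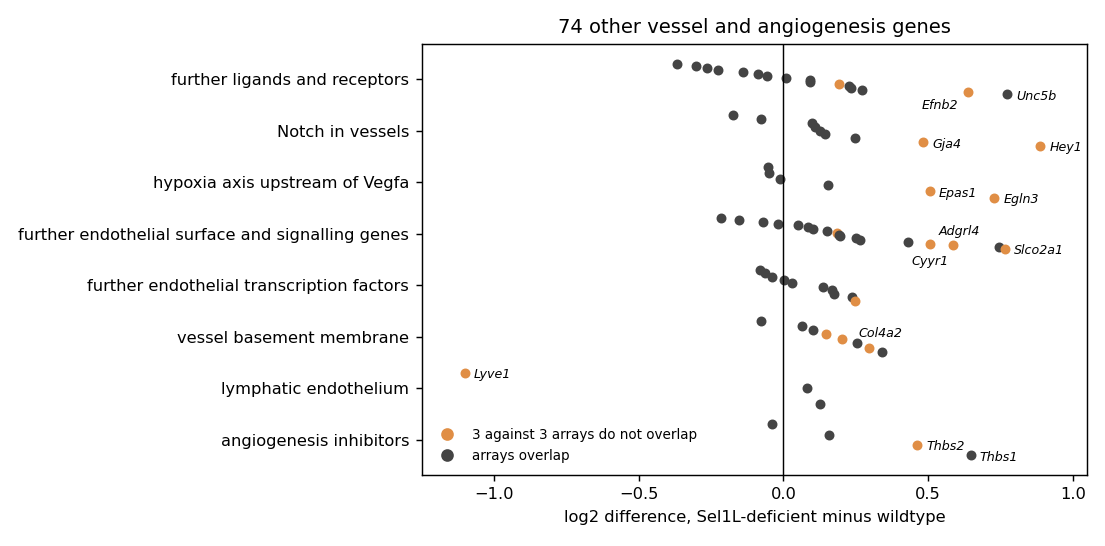
Log2 difference, Sel1L-deficient minus wildtype, of 74 vessel and angiogenesis genes outside the list of 38, by role; orange points are genes whose 3 arrays of each genotype do not overlap. Hey1 lies highest at 0.89 and Lyve1 lowest at -1.10, and none passed the adjusted threshold in the fit without covariates.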

How the data were processed

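Whole-transcript Affymetrix arrays measured 3 Sel1L-deficient and 3 wildtype islet samples. The authors summarised probe sets with RMA, per the submitters' processing notes; its version, filters and logarithm base are not given in the sources used here. Log2 was assumed for the deposited values, which ran from 0.526 to 13.0 with array medians of 3.08 to 3.16. The platform annotation gave 1 symbol for 23521 of 41345 probe sets, several for 1814 and none for 16010. For genes with several probe sets the one brightest over all 6 arrays stood for the gene, giving 22180 genes.

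Genotypes were compared by a two-sided moderated test (limma 3.58.1 under R 4.3.3), with Benjamini-Hochberg adjustment over all 22180 genes and a threshold of 0.05. The fit was tested on simulated data. The number of arrays limits the precision. The members, lists and motifs were chosen with earlier results of these data known. Among the 38, array values were given for genes past the threshold, for genes without overlap and for Vegfa, Kdr, Flt1, Tek, Angpt2, Pecam1, Cdh5 and Plvap. Of the wider list, the 2 smallest unadjusted p of each role were named. Prox1, Ptprc, the named mesenchymal markers and the 11 β-cell markers were named after their values were seen. Summed levels are sums of 2 raised to the log2 value. Alternatives were a replicate block, a covariate for Y-linked transcripts, other probe set rules, a filter on dim genes, another prior, centring, quantile normalization and leaving out each array. Promoters came from RefSeq, GRCm38.p6.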

Additional observations from a re-analysis of the deposited data

How the results depend on the processing

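The median difference of the 38 genes stayed positive under all alternatives run, between 0.21 and 0.34 when 1 array was left out. Cd34 passed under 6 of the other 8 alternatives on all 6 arrays, those on probe sets, dim genes, prior, centring and normalization. The count of listed genes that rose was 0 with the replicate block, with the covariate for Y-linked transcripts and on the 4 arrays without them, and 0 to 0 when any 1 array was left out. Cd34 had limma adjusted p = 0.0853 with the block, and its difference lay between 0.70 and 0.80 without 1 array. Listed genes higher without overlap numbered 15 to 23 when 1 array was left out, while the share of all genes was 11.8% to 12.9%. The most were found without Sel1L-deficient replicate 2 (12.6% of all genes). On the 4 arrays there were 23 (18.4% of all genes). Those 4 arrays were taken as an alternative after the data had been seen. In the wider list 1 gene, Lyve1, fell with the replicate block (adjusted p = 0.0333) and with the covariate. Replicate numbers alone were shared between the genotypes: deviations from the group means correlated at 0.105, 0.072 and 0.21 for numbers 1, 2 and 3, and every array correlated best with its own number, a hint from the data only. Ramp2 turned to -0.0125 with centring and -0.0106 with quantile normalization, and Clec14a to -0.059 on the 4 arrays. Leaving out 1 array turned the sign of 5 genes near 0, with ranges of -0.27 to 0.068 for Aplnr, -0.080 to 0.0505 for Ramp2, -0.13 to 0.0094 for Cldn5, -0.031 to 0.074 for Sox17 and -0.036 to 0.28 for Clec14a; the cause was not tested. Over all genes, 20 rose and 34 fell in the reported fit, 14 and 22 with the block, 44 and 89 with a trended robust prior, 1 and 0 on the 4 arrays, and 1 to 13 and 3 to 16 without 1 array. Listed genes that fell, 0, and wider genes that rose, 0, were the same throughout. Counts without overlap have no value under the block, the covariate or the other prior.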
